A study of Drosophila melanogaster with 36 samples.

Results

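The genes described here are the odorant-binding protein genes of the fruit fly *Drosophila melanogaster*, measured in brain glia and in whole brain of young and old flies. They were chosen by name: every gene of the counts table whose symbol starts with Obp, plus *a10* and *EbpIII*, which gave 53 of the 17562 genes. The table held 36 libraries in 12 groups of 3, made from 3 GAL4 driver lines that each labelled a glial population with GFP. GMR56F03 and GMR10E12 are active mainly in ensheathing glia, which wrap the neuropil, and GMR86E01 in astrocyte-like glia, which send processes into it. Brains came from females aged 70 days (old) or 5 days (young) and were dissociated in the presence of actinomycin D, which blocks new transcription. For each line and age, GFP-positive cells that excluded DAPI were sorted (sorted ensheathing or astrocyte-like glia), and the unsorted suspension of the same brains was sequenced too (whole brain). Every group carried a driver and the reporter, so no group was free of transgenes, and several brains were pooled in each replicate. Each driver was studied in 1 line, so the driver and the background of its line cannot be told apart.

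Odorant-binding proteins are small secreted proteins that carry hydrophobic molecules through aqueous fluid. They are best known from the lymph around the olfactory and taste neurons of antenna, palps and legs, where they meet odorants before the receptors do. Many members are also made far from sensory organs, in glia, fat body and the male reproductive tract. *a10* and *EbpIII* belong to the related chemosensory protein family, *a10* named for the antenna and *EbpIII* for the ejaculatory bulb. *lush*, which encodes the odorant-binding protein of the pheromone 11-cis-vaccenyl acetate, has another kind of symbol and is not a member. Of the members, 30 lay on chromosome arm 2R, 12 on 3R, 6 on X, 3 on 3L and 2 on 2L, and 10 clusters held neighbours less than 20 kb apart. The largest cluster was *Obp56a* to *Obp56f* on 2R (19697723 to 19713976, dm6), with 6 genes. The strand setting of the counting is not given in the sources used here, so genes that overlap a gene on the opposite strand carry uncertain counts. Among the members described with values, these were *Obp44a* (with *Pabp2*), *Obp99c* (with *Gycalpha99B*), and *Obp83cd* and *Obp83ef*, which overlap each other.

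Libraries held 912285 to 17060052 counted reads. The glial marker *repo* lay at 161 to 490 reads per 1000000 counted reads (CPM) in sorted libraries and at 34.9 to 94.2 CPM in whole brain. The astrocyte marker list (4 genes) summed to 4011 to 6761 CPM in sorted GMR86E01 cells at day 70, against 19390 to 20380 CPM at day 5, and neuron markers (7 genes) to 1263 to 1526 CPM, against 251 to 456 CPM. All sorted groups also held blood cell markers (5 genes, 635 to 3551 CPM, against 132 to 338 CPM in whole brain). Photoreceptor markers (8 genes) summed to 315 to 8630 CPM in sorted libraries, against 740 to 16510 CPM in whole brain. In 5 of the day 70 libraries the fat body list (5 genes) summed to 1299 to 8921 CPM, while in all other libraries it stayed at or below 610.5 CPM. They were replicate 1 of sorted GMR10E12 glia and, in whole brain, GMR10E12 replicates 1 and 3, GMR56F03 replicate 3 and GMR86E01 replicate 3. The part of these other cells in the results below was not tested unless a value is given.

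Most members had few or no reads in the brain. No read was counted for 9 of them in any library: *Obp47a*, *Obp47b*, *Obp50a*, *Obp50b*, *Obp50c*, *Obp50d*, *Obp56b*, *Obp57d* and *Obp58d*. Another 12 had 1 to 9 counts over all 36 libraries (*Obp19b*, *Obp46a*, *Obp50e*, *Obp56c*, *Obp56e*, *Obp56f*, *Obp56i*, *Obp58b*, *Obp58c*, *Obp59a*, *Obp93a* and *Obp99d*), 13 had 10 to 99 (*Obp19a*, *Obp22a*, *Obp28a*, *Obp49a*, *Obp51a*, *Obp56g*, *Obp57a*, *Obp57c*, *Obp57e*, *Obp73a*, *Obp83b*, *Obp84a* and *Obp99b*), and 19 had at least 100. With 3 counts as the floor, the level that a library could miss was 0.176 to 3.29 CPM, so absence at lower levels was not shown. In all, 17 members passed the filter on low counts in at least 1 comparison and 36 in none, and 15 of the 17 were called at least once (all but *Obp85a* and *Obp99a*). *Obp44a* alone held 51.4% of the 240547 reads on all members, and the 5 most counted members held 92.6%. The members together took 0.0323% to 0.255% of all reads in sorted glia and 0.0237% to 0.179% in whole brain.

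**Figure D1:**
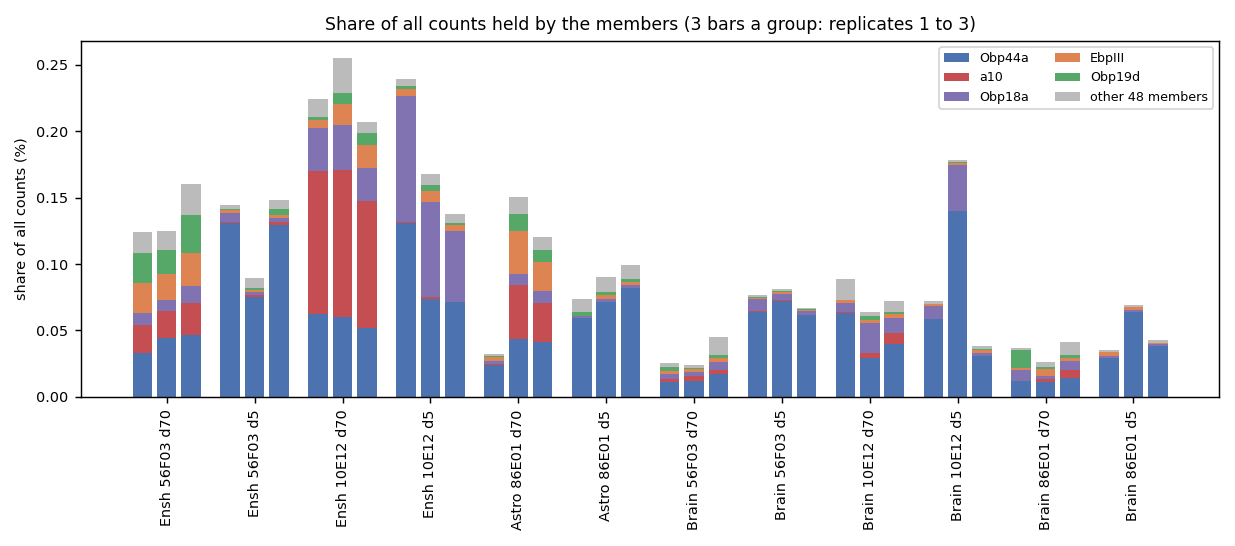
Share of all counted reads (y axis, %) held by the 53 genes in each of the 36 libraries, with 3 bars a group for replicates 1 to 3. *Obp44a* (blue) dominates every day 5 group except sorted GMR10E12 glia, where *Obp18a* (purple) is nearly as large, and *a10* (red) takes a large share in sorted glia at day 70, except in replicate 1 of the astrocyte-like group (7.24 CPM).

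Ranked by CPM per kilobase of exon, which allows genes of different length to be compared, *Obp44a* was first in 8 of the 12 groups. At day 70 *a10* came first in all 3 sorted groups, with 392 CPM per kb in GMR56F03, 1850 in GMR10E12 and 414 in GMR86E01 cells, where *Obp44a* had 382, 540 and 338 CPM per kb. In GMR10E12 glia at day 5 *Obp18a* was first with 999.3 CPM per kb, and *Obp44a* followed with 855. In whole brain *Obp44a* led at both ages, and *Obp18a* was among the first 3 in every whole brain group. These are means of 3 libraries. Library by library, *a10* exceeded *Obp44a* per kb in 6 of the 9 old sorted libraries, while *Obp44a* was above *a10* in GMR56F03 replicates 2 and 3 (410 against 368 and 430.0 against 429 CPM per kb) and in astrocyte-like replicate 1 (221 against 12.8 CPM per kb).

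**Figure D2:**
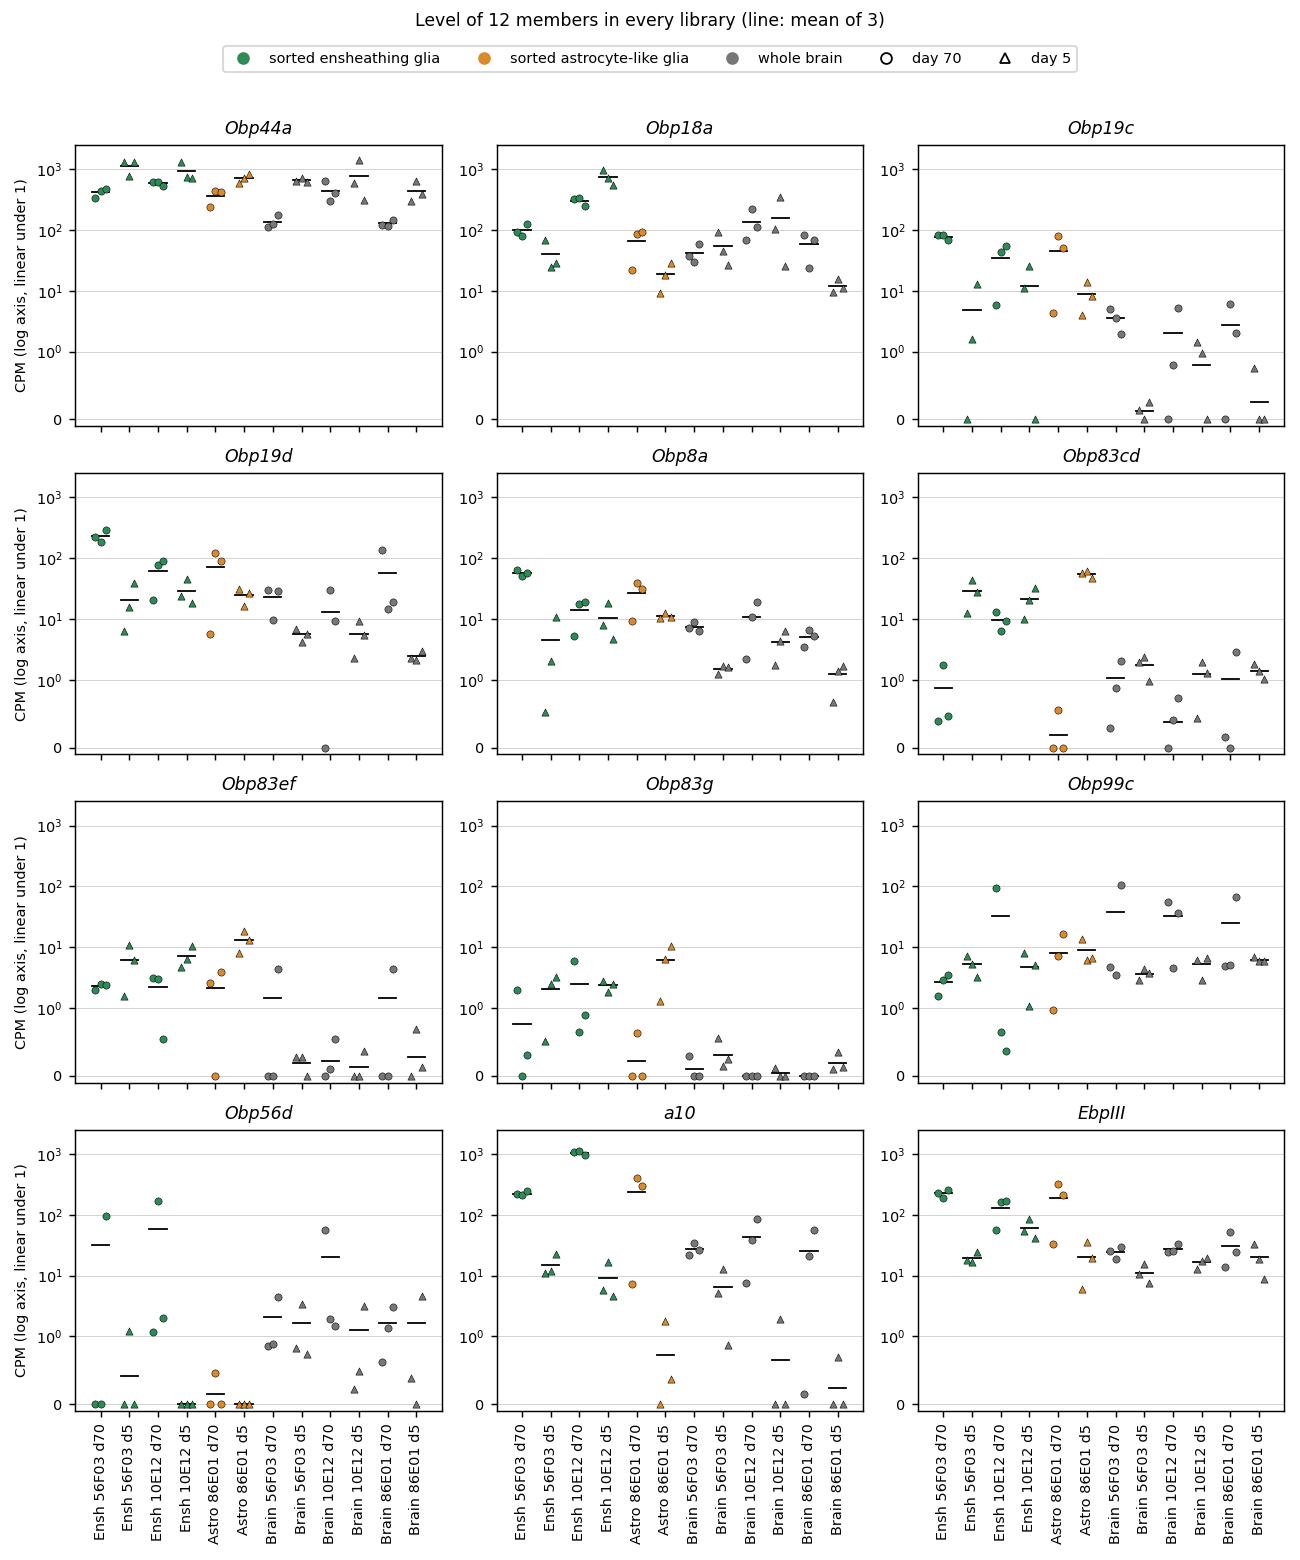
Level (CPM, log axis that is linear below 1) of 12 genes in every library, with circles for day 70, triangles for day 5 and a line at the mean of 3. *a10* at day 70 sits above all its day 5 values in each sorted group, *Obp44a* below them, and *Obp18a* is highest in sorted GMR10E12 glia, at 247 to 952 CPM.

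The first question of the design was what changes between day 70 and day 5. A gene counted as changed when edgeR's quasi-likelihood test gave it an adjusted p under 0.05, with the adjustment made over all genes that passed a filter on low counts. In sorted ensheathing glia, with both drivers in 1 fit (n = 6 at each age), 6 of the 13 members tested changed with age, 4 up and 2 down, where 18.2% of all 9265 genes were called (9.41% up and 8.82% down). In sorted astrocyte-like glia (n = 3 at each age) 3 of 11 changed, 1 up and 2 down, where 6.44% of all genes were called (2.8% up and 3.65% down). In whole brain (n = 9 at each age) 6 of 14 changed, 5 up and 1 down, where 21.4% of all genes were called (11% up and 10.4% down). The median log2 change over the members tested was 1.05, 0.83 and 0.95 in these fits, and over all genes 0.01, 0.11 and 0.02. Members low in both groups had already failed the filter, so the counts describe the expressed members and not the family. The 3 fits share no libraries, but the whole brain libraries came from the same brains.

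The ensheathing drivers were also fitted one at a time (n = 3 at each age). In GMR56F03 glia 8 of 11 members changed, 6 up and 2 down (15% of all genes were called, 9.43% up and 5.6% down). In GMR10E12 glia 2 of 11 changed, 1 up and 1 down (9.58% of all genes, 5.19% up and 4.39% down). Of the 11 members tested in both lines, *a10* and *Obp18a* passed in both, and *Obp18a* moved in opposite directions.

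**Figure D3:**
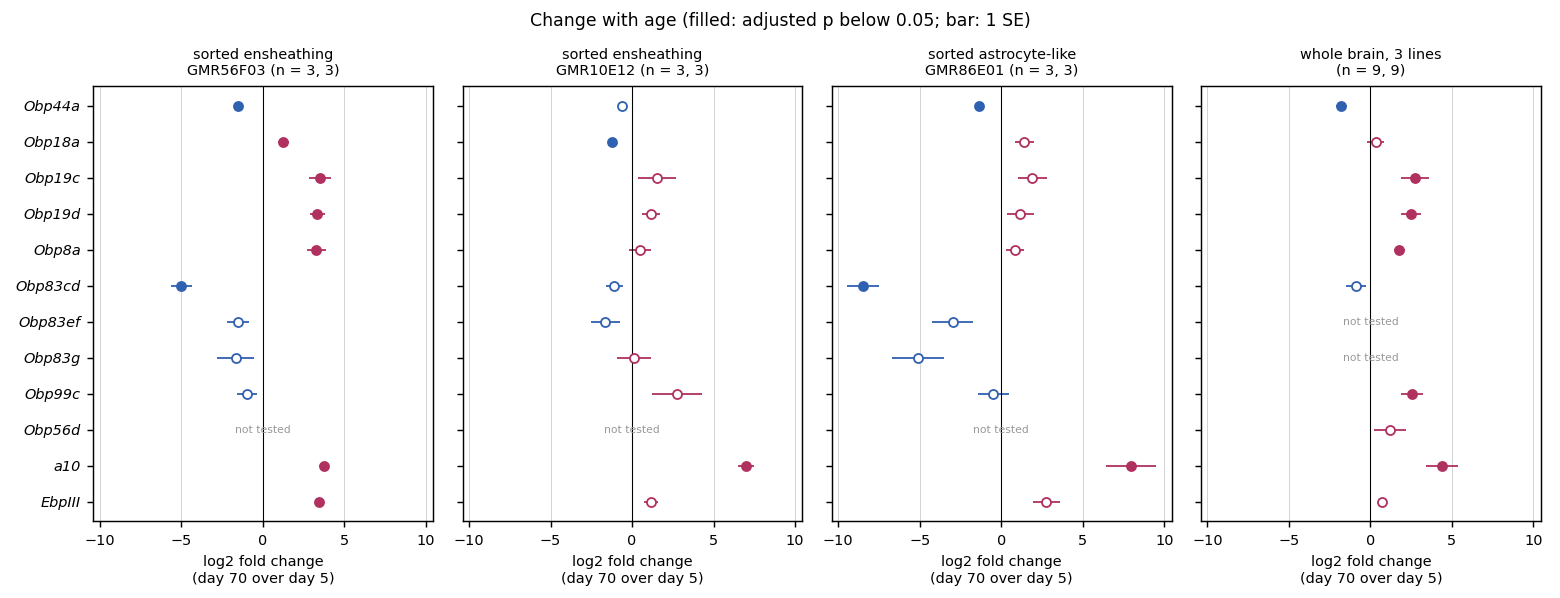
Log2 fold change with age (x axis, day 70 over day 5, bars 1 SE) of 12 genes in 4 comparisons, filled where the adjusted p was below 0.05. *a10* rose in all 4 (3.74, 7.02, 7.96 and 4.40). *Obp44a* was lower in all 4 and called in 3, all but sorted GMR10E12 glia. *Obp83cd* fell by 4.99 in sorted GMR56F03 and fell by 8.48 in sorted GMR86E01 cells.

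*Obp44a* (2R:8134170-8135315, 2 exons) was the most abundant member, and fly studies have described it in glia. In GMR56F03 glia it had 329, 442 and 463 CPM at day 70, against 1308, 755 and 1298 CPM at day 5. In GMR10E12 glia it had 621, 601 and 522 CPM at day 70, against 1309, 738 and 712 CPM at day 5. In astrocyte-like glia it had 238, 438 and 415 CPM at day 70, against 596, 714 and 816 CPM at day 5. Every old library thus lay below every young one of its group. The log2 change was −1.07 in ensheathing glia (SE 0.22, adjusted p = 0.00399, edgeR's quasi-likelihood test), −1.50 in GMR56F03 alone (adjusted p = 0.00162) and −1.35 in astrocyte-like glia (SE 0.252, adjusted p = 0.0181). In GMR10E12 glia alone it was −0.62 and did not pass (adjusted p = 0.152). The call in astrocyte-like glia was lost without day 5 replicate 2 (adjusted p = 0.0769) and when libraries were scaled by total counts (−0.96, adjusted p = 0.0553). In bulk RNA, fewer cells of a type and less RNA per cell cannot be told apart, and *repo* was also lower at day 70 than at day 5 in each sorted group. The astrocyte marker list, lower in old GMR86E01 cells as given above, also summed to 3289 to 3327 CPM in GMR56F03 glia at day 70, against 7760 to 7957 CPM at day 5, and to 1902 to 2474 CPM in GMR10E12 glia at day 70, against 4719 to 6033 CPM at day 5. The ensheathing marker list (4 genes) summed to 1142 to 1277 CPM in GMR56F03 glia at day 70, against 1939 to 2081 CPM at day 5, and to 577 to 780.0 CPM in GMR10E12 glia at day 70, against 1260 to 1596 CPM at day 5. As sums, both lists thus separated the ages of ensheathing glia in the direction of *Obp44a*. Within the ensheathing list *Eaat2* and *CG9657* did so in both lines and *sgl* only in GMR56F03 glia, while *egr* went the other way. *egr* had 145, 140 and 167 CPM in GMR56F03 glia at day 70, against 134, 112 and 121 CPM at day 5. In GMR10E12 glia it had 92.8, 125 and 100.5 CPM at day 70, against 59.6, 76.6 and 51.6 CPM at day 5. The part of these lists in the fall of *Obp44a* was not tested.

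In whole brain *Obp44a* ranged from 110 to 630 CPM at day 70 (median 146), against 294 to 1400 CPM at day 5 (median 618). It fell by 1.78 on the log2 scale (SE 0.32, adjusted p = 0.00075, edgeR's quasi-likelihood test). By line, day 70 libraries had 110, 123 and 175 CPM in GMR56F03 brains, against 640, 718 and 618 CPM at day 5. GMR86E01 brains had 121, 115.3 and 146 CPM at day 70, against 294, 639 and 386 CPM at day 5. The ages did not overlap in either of these lines. GMR10E12 brains had 630, 294 and 398 CPM at day 70, against 583, 1400 and 308 CPM at day 5, and here the ages overlapped. With GMR10E12 brains alone the change was −0.75 and did not pass (adjusted p = 0.615). *repo* in whole brain did not separate the ages (42.5 to 61.8 CPM at day 70, against 34.9 to 94.2 CPM at day 5). The astrocyte marker list was lower in old brains, at 527 to 1248 CPM at day 70 (median 804), against 1029 to 3529 CPM at day 5 (median 1793), and its ages did not overlap within any line. Its part in the fall of *Obp44a* was not tested.

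*a10* (3L:17023123-17023741, 2 exons), the antennal chemosensory protein, rose with age in all sorted groups and in whole brain. GMR10E12 glia had 1083, 1110 and 954.6 CPM at day 70, against 5.73, 16.7 and 4.59 CPM at day 5. GMR56F03 glia had 215, 209 and 243 CPM at day 70, against 10.9, 11.8 and 22.8 CPM at day 5. Within each ensheathing line the 3 old libraries were close to each other and lay far above the young ones. The log2 change was 5.33 over both drivers (SE 0.611, adjusted p = 8.32e-05, edgeR's quasi-likelihood test), 7.02 in GMR10E12 (SE 0.492, adjusted p = 0.000148) and 3.74 in GMR56F03 (SE 0.273, adjusted p = 3.59e-05). Some marker lists of other cells summed higher at day 70. Photoreceptor markers summed to 2312 to 3920 CPM in GMR56F03 glia at day 70, against 1004 to 1769 CPM at day 5. In GMR10E12 glia they summed to 5710 to 8630 CPM at day 70, against 4413 to 6307 CPM at day 5, and the ages overlapped. The genes of this list did not move together. *ninaE* and *inaD* were higher in every old library of both lines than in the young ones. *inaC* was lower in both lines, and *Arr2* and *ninaC* in GMR10E12 glia. There *ninaE* had 6872, 4491 and 6448 CPM at day 70, against 2891, 3977 and 2640 CPM at day 5. *Arr2* had 584, 379 and 590 CPM, against 848, 1020 and 838 CPM. Surface glia markers (4 genes) summed to 2218 to 2948 CPM in GMR56F03 glia at day 70, against 1397 to 1922 CPM at day 5. Most of this was *Vmat* (2603, 1988 and 1923 CPM at day 70, against 1688, 1169 and 1155 CPM at day 5). *moody* and *Gli* were also higher in every old library, while *Mdr65* overlapped. Blood cell markers summed to 2045 to 2675 CPM in GMR10E12 glia at day 70, against 635 to 1886 CPM at day 5. The part of these lists in the rise of *a10*, and of the other members called higher in old glia, was not tested.

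Astrocyte-like glia had 7.24, 403 and 294 CPM of *a10* at day 70, against 0, 1.79 and 0.367 CPM at day 5, which rest on 12 counts in all. Replicate 1 at day 70 was far below the other old libraries, and its photoreceptor markers summed to 404 CPM, against 3859 and 4481 CPM in replicates 2 and 3. The log2 change was 7.96 (SE 1.54, adjusted p = 0.0211, edgeR's quasi-likelihood test). The call was lost when day 5 replicate 1, 2 or 3 or day 70 replicate 3 was left out (adjusted p = 0.0702, 0.0767, 0.0759 and 0.0568). In whole brain *a10* ranged from 0.156 to 83.8 CPM at day 70 (median 26.8), against 0 to 13 CPM at day 5 (median 0.698), a log2 change of 4.40 (SE 0.995, adjusted p = 0.00416). Among old brains only GMR86E01 replicate 1 (0.156 CPM) and GMR10E12 replicate 1 (7.67 CPM) lay within the day 5 range. With a single line it did not pass in GMR56F03 (1.93, adjusted p = 0.0833) or GMR10E12 brains (7.11, adjusted p = 0.259), and with GMR86E01 brains alone it failed the filter on low counts and was not tested.

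*EbpIII* (2R:24026172-24027518, 4 exons), first described in the ejaculatory bulb and a relative of *a10*, was counted in all 36 libraries. GMR56F03 glia had 224, 191 and 254 CPM at day 70, against 17.7, 16.8 and 24.3 CPM at day 5. GMR10E12 glia had 56.8, 160 and 171 CPM at day 70, against 54.1, 84.2 and 41.0 CPM at day 5. Astrocyte-like glia had 32.9, 324 and 214 CPM at day 70, against 5.94, 36.1 and 19.1 CPM at day 5. The ages separated fully in GMR56F03 glia, while in each of the other groups replicate 1 at day 70 lay among the young libraries. *EbpIII* rose over both ensheathing drivers (2.24, SE 0.426, adjusted p = 0.00253, edgeR's quasi-likelihood test) and in GMR56F03 alone (3.43, SE 0.212, adjusted p = 1.61e-05). The change was 1.15 in GMR10E12 (adjusted p = 0.12) and 2.77 in astrocyte-like glia (adjusted p = 0.0844), neither of which passed. Without replicate 1 at day 70 it passed in both (1.51, adjusted p = 0.031, in GMR10E12 and 3.17, adjusted p = 0.0248, in astrocyte-like glia). No other single omission did so, and that library was singled out by its low value, so these passes are no firm calls. With all libraries kept, DESeq2 called it in GMR10E12 (adjusted p = 0.0295) and astrocyte-like glia (adjusted p = 0.00186). So did edgeR without a filter (adjusted p = 0.0209 and 0.0219). In 1 fit over all 36 libraries it passed only in astrocyte-like glia (adjusted p = 0.00122), and with other scaling in edgeR in neither. In whole brain it ranged from 14.1 to 53.0 CPM at day 70 (median 25.0), against 7.55 to 32.5 CPM at day 5 (median 15.4), and 0.70 did not pass (adjusted p = 0.0555). That value lay on the threshold: with the low-count filter set on the compared groups it was 0.74 (adjusted p = 0.0439).

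*Obp19c* and *Obp19d* belong to a cluster of 4 on X (20415744 to 20420979), and *Obp19d* is known from olfactory and taste organs. The remaining genes of the cluster were scarcely counted, *Obp19a* with 37 and *Obp19b* with 7 counts in all. *Obp19d* in GMR56F03 glia had 225, 187 and 286 CPM at day 70, against 6.25, 15.9 and 39.0 CPM at day 5. In GMR10E12 glia it had 20.4, 77.9 and 89.5 CPM at day 70, against 23.5, 45.0 and 18.1 CPM at day 5. In astrocyte-like glia it had 5.67, 122 and 90.6 CPM at day 70, against 31.0, 16.1 and 27.2 CPM at day 5. As with *EbpIII*, the ages separated in GMR56F03 glia and replicate 1 at day 70 was the low one in the other lines. *Obp19d* rose by 2.26 over both ensheathing drivers (SE 0.534, adjusted p = 0.00931, edgeR's quasi-likelihood test) and by 3.34 in GMR56F03 (adjusted p = 0.00131). It did not pass in GMR10E12 (1.16, adjusted p = 0.212) or astrocyte-like glia (1.18, adjusted p = 0.466). Without replicate 1 at day 70, again singled out by its low value, it passed narrowly in both (1.58, adjusted p = 0.0473, and 1.62, adjusted p = 0.0482).

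*Obp19c* (X:20417921-20418964) lies on the strand opposite to *Obp19d*, without sharing exons with its neighbours. In GMR56F03 glia it had 82.0, 81.3 and 67.0 CPM at day 70, against 0, 1.64 and 13.1 CPM at day 5. In GMR10E12 glia it had 5.84, 42.6 and 53.3 CPM at day 70, against 11.2, 25.0 and 0 CPM at day 5. In astrocyte-like glia it had 4.304, 78.0 and 49.9 CPM at day 70, against 3.96, 14.1 and 8.08 CPM at day 5. The libraries that were high or low in *Obp19d* were mostly the same ones, with replicate 1 again low among the old libraries of those 2 groups. *Obp19c* rose in GMR56F03 glia (3.52, SE 0.67, adjusted p = 0.0063, edgeR's quasi-likelihood test), a call lost in 1 fit over all 36 libraries (3.68, adjusted p = 0.0718). Over both ensheathing drivers 2.57 did not pass (adjusted p = 0.0571), nor did 1.55 in GMR10E12 (adjusted p = 0.475) or 1.90 in astrocyte-like glia (adjusted p = 0.263). Over both drivers *Obp19c* passed in edgeR without a filter (adjusted p = 0.0212) and in 1 fit over all 36 libraries (adjusted p = 0.0283). It did not pass there in DESeq2, with other scaling or with the replicate block.

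*Obp8a* (X:9214876-9215699, 2 exons), known in males as a seminal fluid protein gene, had a similar course. In GMR56F03 glia it had 63.2, 50.7 and 57.05 CPM at day 70, against 0.521, 2.04 and 10.8 CPM at day 5. In GMR10E12 glia it had 5.32, 17.6 and 18.8 CPM at day 70, against 7.95, 18.1 and 4.73 CPM at day 5. In astrocyte-like glia it had 9.39, 38.8 and 31.6 CPM at day 70, against 10.6, 12.6 and 10.9 CPM at day 5. Only in GMR56F03 glia were all old libraries above all young ones. The log2 change was 3.29 there (SE 0.587, adjusted p = 0.00456, edgeR's quasi-likelihood test), while 1.92 over both drivers (adjusted p = 0.0631), 0.48 in GMR10E12 (adjusted p = 0.725) and 0.83 in astrocyte-like glia (adjusted p = 0.449) did not pass. Over both drivers DESeq2 called *Obp8a* (adjusted p = 0.0364). In edgeR it passed without a filter (adjusted p = 0.0308) and in 1 fit over all 36 libraries (adjusted p = 0.00378), but not with other scaling or the replicate block.

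In whole brain *Obp19d*, *Obp8a* and *Obp19c* were each called higher at day 70. *Obp19d* ranged from 0 to 138 CPM at day 70 (median 18.8), against 2.10 to 9.32 CPM at day 5 (median 4.24), and rose by 2.48 (SE 0.604, adjusted p = 0.00673, edgeR's quasi-likelihood test). The highest old value was GMR86E01 replicate 1, in which *Obp19c* was at 0. *Obp8a* ranged from 2.19 to 18.9 CPM at day 70 (median 6.59), against 0.668 to 6.27 CPM at day 5 (median 1.69), and rose by 1.76 (SE 0.331, adjusted p = 0.001). For both genes all old GMR56F03 and GMR86E01 brains lay above the young ones of their line, and in GMR10E12 brains the ages overlapped. With GMR10E12 brains alone neither gene passed (*Obp19d* 1.25, adjusted p = 0.592, *Obp8a* 1.47, adjusted p = 0.425), and *Obp8a* also missed with GMR86E01 brains alone (1.85, adjusted p = 0.0834). *Obp19c* was low, at 0 to 6.04 CPM at day 70 (median 2.05), against 0 to 1.44 CPM at day 5 (median 0.138). It rose by 2.74 (SE 0.849, adjusted p = 0.027), and the call was lost in 7 of 18 fits that left out 1 library, with an adjusted p of up to 0.0843. Those libraries were GMR56F03 replicate 1 and GMR10E12 replicate 3 and GMR86E01 replicate 2 at day 70, and GMR56F03 replicates 1, 2 and 3 and GMR86E01 replicate 2 at day 5. It was also lost without the 4 old brains with *Yp1* above 200 CPM, described with *Obp99c* (2.96, adjusted p = 0.0604).

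*Obp83cd*, *Obp83ef* and *Obp83g* stand together on 3R (6108134 to 6112302), and the first pair encodes proteins with tandem odorant-binding domains. *Obp83cd* ranked second by CPM per kb in young astrocyte-like glia and was nearly undetected in old ones. It had 0, 0.548 and 0 CPM there at day 70 (6 counts), against 56.8, 62.2 and 47.8 CPM at day 5 (980 counts). In GMR56F03 glia it had 0.394, 1.76 and 0.472 CPM at day 70, against 12.5, 44.1 and 28.3 CPM at day 5. In GMR10E12 glia it had 12.8, 6.45 and 9.22 CPM at day 70, against 9.94, 20.7 and 32.8 CPM at day 5. The ages were far apart in GMR86E01 and GMR56F03 cells and overlapped in GMR10E12 cells. *Obp83cd* fell by 8.48 in astrocyte-like glia (SE 0.965, adjusted p = 0.00233, edgeR's quasi-likelihood test) and fell by 4.99 in GMR56F03 glia (SE 0.662, adjusted p = 0.00094). It fell by 2.81 over both ensheathing drivers (adjusted p = 0.0158), while −1.09 in GMR10E12 glia did not pass (adjusted p = 0.224). The size of the fitted fall in astrocyte-like glia depends on few counts, since leaving out single libraries moved it between −12.12 and −7.74, with the call kept in all 6 fits.

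The difference between the changes with age was itself tested. For *Obp83cd* the change in ensheathing glia minus that in astrocyte-like glia was 5.44 (SE 0.996, adjusted p = 0.0021, edgeR's quasi-likelihood test), the only 1 of 13 members called, where 11.9% of all genes were called. With GMR56F03 as the only ensheathing driver the difference was 3.44 and did not pass (adjusted p = 0.142), so the call rested on GMR10E12 cells. The sums of the astrocyte and ensheathing marker lists were lower at day 70 in both ensheathing lines too, though *egr* was higher (values with *Obp44a*). Astrocyte and blood cell markers of sorted GMR86E01 cells were also lower in old libraries (blood cell list 660 to 934 CPM at day 70, against 2787 to 3551 CPM at day 5), and their part in the fall was not tested.

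*Obp83ef* and *Obp83g* had lower levels with the same order of ages in most groups. *Obp83ef* had 2.54, 0 and 3.93 CPM in astrocyte-like glia at day 70, against 7.92, 18.4 and 13.2 CPM at day 5. It had 0.542 to 3.11 CPM in ensheathing glia at day 70 (median 2.42), against 1.56 to 11.03 CPM at day 5 (median 6.30). *Obp83g* had 0, 0.639 and 0 CPM in astrocyte-like glia at day 70, against 1.32, 6.41 and 10.6 CPM at day 5. All old astrocyte-like libraries were below all young ones for both genes. Neither passed there (*Obp83ef* −2.99, adjusted p = 0.209, *Obp83g* −5.10, adjusted p = 0.103, edgeR's quasi-likelihood test). *Obp83g* did pass there in DESeq2 (adjusted p = 0.00922) and in 1 edgeR fit over all 36 libraries (adjusted p = 0.0116), but not with other scaling or the replicate block. In ensheathing glia −1.58 for *Obp83ef* also missed (adjusted p = 0.0575), and with the filter set on the compared groups its adjusted p was 0.0492. In whole brain *Obp83cd* ranged from 0 to 2.91 CPM at day 70 (median 0.402), against 0.442 to 2.40 CPM at day 5 (median 1.40), and −0.91 did not pass (adjusted p = 0.308). Without the 4 whole brains with *Yp1* above 200 CPM it was −2.57 and passed (adjusted p = 0.00978). The highest *Obp83ef* values of all whole brains, 4.40 and 4.45 CPM, were in GMR56F03 and GMR86E01 replicate 3 at day 70, both among those 4.

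*Obp18a* (X:19135081-19135868, 2 exons) was the member that set the driver lines apart. GMR10E12 glia had 324, 336 and 247 CPM at day 70, against 952, 712 and 536 CPM at day 5. GMR56F03 glia had 90.8, 80.2 and 125 CPM at day 70, against 69.3, 24.1 and 28.4 CPM at day 5. Old libraries were thus below all young ones in the first line and above all young ones in the second. *Obp18a* fell by 1.24 in GMR10E12 glia (SE 0.244, adjusted p = 0.0149, edgeR's quasi-likelihood test) and rose by 1.27 in GMR56F03 glia (SE 0.361, adjusted p = 0.0404). Over both drivers the log2 change was −0.04 (adjusted p = 0.962). The GMR56F03 call was lost in 5 of 6 fits that left out 1 library, all but the one without day 5 replicate 1 (adjusted p up to 0.139). The GMR10E12 call was lost without day 5 replicate 1 (adjusted p = 0.0583) or day 70 replicate 2 (adjusted p = 0.0511). In 1 fit over all 36 libraries both calls were lost (adjusted p = 0.285 in GMR56F03 and 0.2 in GMR10E12).

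The age difference between the drivers was tested after these values had been seen. GMR56F03 minus GMR10E12 was 2.48 for *Obp18a* (SE 0.482, adjusted p = 0.0351, edgeR's quasi-likelihood test) and −3.30 for *a10* (SE 0.549, adjusted p = 0.0165), 2 of 13 members, where 0.691% of all genes were called. The *Obp18a* difference was lost in 9 of 12 fits that left out 1 library (adjusted p up to 0.104). That of *a10* was lost without GMR56F03 day 70 replicate 1 (−3.27, adjusted p = 0.0546). Both were lost in 1 fit over all 36 libraries, with adjusted p = 0.223 for *Obp18a* and 0.325 for *a10*.

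In astrocyte-like glia *Obp18a* had 22.1, 86.9 and 90.6 CPM at day 70, against 9.24, 18.2 and 28.3 CPM at day 5, and 1.42 did not pass (adjusted p = 0.199, edgeR's quasi-likelihood test). In whole brain it ranged from 23.5 to 221 CPM at day 70 (median 66.9), against 9.54 to 343 CPM at day 5 (median 26.9), and 0.31 did not pass (adjusted p = 0.719). Averaged over the ages, GMR56F03 glia had less *Obp18a* than GMR10E12 glia (−3.06, SE 0.454, adjusted p = 0.000494), the only 1 of 13 members called between the drivers, where 11.5% of all genes were called. Whole brains of GMR10E12 also ran high (66.9, 221 and 112 CPM at day 70 and 104, 343 and 25.4 CPM at day 5), against 23.5 to 81.9 CPM at day 70 and 9.54 to 15.7 CPM at day 5 in GMR86E01 brains. This difference of 2.38 did not pass edgeR's quasi-likelihood test (adjusted p = 0.116) and passed in DESeq2 (adjusted p = 0.0097). GMR56F03 brains had 36.9, 30.1 and 57.6 CPM at day 70 and 90.4, 44.4 and 26.9 CPM at day 5, and GMR56F03 against GMR10E12 whole brain was −1.65 and did not pass (adjusted p = 0.407). Line and driver cannot be told apart.

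*Obp99c* (3R:29685736-29689311, 3 exons) and its neighbour *Obp99a* were members whose high values lay in a few libraries. In whole brain *Obp99c* had 4.74, 3.54 and 107 CPM at day 70 in GMR56F03, 55.9, 4.63 and 36.6 CPM in GMR10E12, and 4.84, 5.08 and 66.2 CPM in GMR86E01 brains. At day 5 all 9 whole brains lay between 2.90 and 6.87 CPM. So 4 old brains were high and the other 5 lay within the young range. *Obp99c* rose by 2.52 (SE 0.672, adjusted p = 0.0117, edgeR's quasi-likelihood test). The 4 high brains were those with the fat body markers given above (sums of 1299 to 8569 CPM, with the yolk protein gene *Yp1* at 403 to 1702 CPM), and the list in the other 14 whole brains was at most 610.5 CPM. Without these 4 libraries, left out after seeing their values because *Yp1* exceeded 200 CPM, the change was −0.30 and did not pass (adjusted p = 0.339). The call was also lost without GMR56F03 replicate 3 (1.67, adjusted p = 0.0614) or GMR86E01 replicate 3 (2.10, adjusted p = 0.0603) at day 70, and within each line alone.

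The same coincidence was seen in sorted cells. GMR10E12 glia had 95.6, 0.645 and 0.362 CPM of *Obp99c* at day 70, against 8.06, 1.09 and 5.14 CPM at day 5. Replicate 1 at day 70 held fat body markers at 8921 CPM, against 142 and 178 CPM in the other old replicates. GMR56F03 glia had 1.58, 2.93 and 3.46 CPM at day 70, against 7.29, 5.31 and 3.21 CPM at day 5, and astrocyte-like glia 0.978, 7.12 and 16.4 CPM, against 13.9, 6.15 and 6.69 CPM. No age change of *Obp99c* passed in sorted glia (2.74 in GMR10E12, −0.98 in GMR56F03 and −0.48 in astrocyte-like glia, adjusted p = 0.319, 0.346 and 0.827, edgeR's quasi-likelihood test). *Obp99a* followed at lower levels: its highest values were 9.18 CPM in GMR10E12 whole brain replicate 3 and 7.91 CPM in GMR10E12 glia replicate 1, both at day 70. Its whole brain change of 2.21 did not pass (adjusted p = 0.0589). Against whole brain, neither gene passed in sorted ensheathing glia (*Obp99c* −0.69, adjusted p = 0.454, *Obp99a* −1.47, adjusted p = 0.17). Without GMR10E12 glia replicate 1 at day 70 both were lower there (*Obp99c* −1.93, adjusted p = 0.0443, *Obp99a* −3.58, adjusted p = 0.00347).

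**Figure D4:**
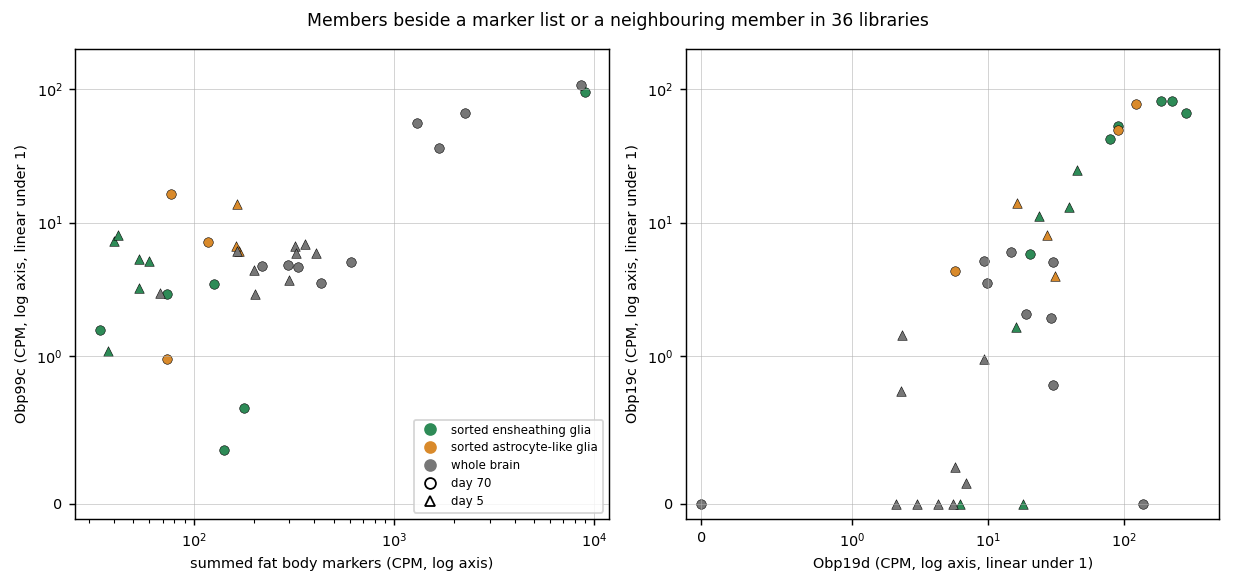
Left, *Obp99c* against the summed fat body markers, and right, *Obp19c* against its neighbour *Obp19d*, in the 36 libraries (CPM, log axes, linear below 1 where a gene can be 0). The 5 libraries with marker sums of 1299 to 8921 CPM are the 5 with the most *Obp99c*, and *Obp19c* exceeds 40 CPM only where *Obp19d* is at 77.9 CPM or more.

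*Obp56d*, expressed in antennae and taste organs, was called higher at day 70 in ensheathing glia on the strength of 2 libraries. GMR56F03 glia had 0, 0 and 96.3 CPM and GMR10E12 glia 1.17, 169 and 1.99 CPM at day 70, while 5 of the 6 day 5 libraries had 0 and the other 1.23 CPM (3 counts). The pooled ratio was 469 (95% exact interval 160 to 2280, counting error only) and describes those 2 libraries rather than the group. The fitted change was 8.53 (SE 2.17, adjusted p = 0.014, edgeR's quasi-likelihood test), lost without GMR56F03 day 5 replicate 2 (adjusted p = 0.0557) and not tested with the filter set on the compared groups. In whole brain the highest value, 57 CPM, was in GMR10E12 replicate 1 at day 70, and 1.19 for age did not pass (adjusted p = 0.422). Sorted GMR10E12 replicate 2 at day 70 held 54.2% of all *Obp56d* counts. It was also the peak library of 8 members with at least 10 counts: *a10*, *Obp28a*, *Obp56d*, *Obp57b*, *Obp57c*, *Obp69a*, *Obp83b* and *Obp99b*. Its antennal and olfactory neuron markers (5 genes) summed to 41.9 CPM, against 2.05 to 27.0 CPM in the other 35 libraries. Most of this was *Snmp1* (26.6 CPM, at most 19.7 CPM elsewhere), *Os-C* had 9.68 CPM (at most 0.586 CPM elsewhere), *Orco* had 3.07 CPM (up to 17.1 CPM elsewhere) and *lush* was at 0 (up to 7.63 CPM elsewhere). Their part in these peaks was not tested.

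The second question was which members the sorted glia held above the whole brain of the same flies. In ensheathing glia (n = 12 against 12, both ages) 13 of 17 members differed, 11 higher and 2 lower, where 51.5% of all genes were called (25.9% higher and 25.6% lower). In astrocyte-like glia (n = 6 against 6) 5 of 12 differed, 4 higher and 1 lower, where 44.9% of all genes were called (23.8% higher and 21.1% lower). The median log2 difference over the members tested was 1.69 and 1.80, and over all genes −0.05 and −0.04. A member that passed the filter only through the tissue where it was high was more likely to be called, so these counts are no support for the family as a whole.

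**Figure D5:**
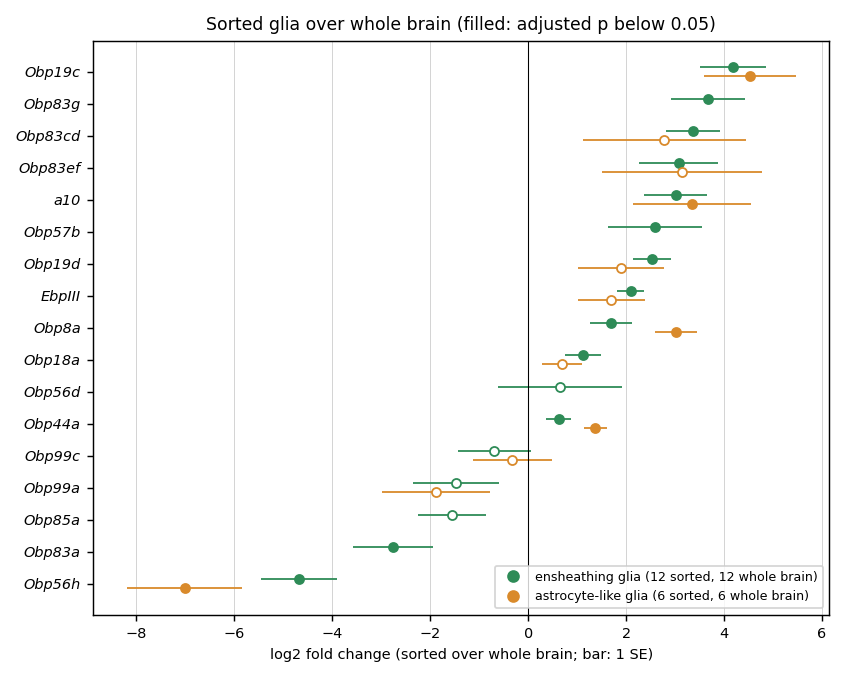
Log2 fold change of sorted glia over whole brain of the same lines (x axis, bars 1 SE) for 17 genes, filled where the adjusted p was below 0.05. *Obp19c* lies at 4.18 for ensheathing and 4.53 for astrocyte-like glia, and *Obp56h* is lowest, at a fitted −4.68 in ensheathing and −7.01 in astrocyte-like glia, where it had no counts.

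*Obp19c* showed the largest excess in ensheathing glia, with 0 to 82.0 CPM (median 19.0), against 0 to 5.14 CPM (median 0.893) in whole brain (log2 4.18, SE 0.668, adjusted p = 7.41e-06, edgeR's quasi-likelihood test). In astrocyte-like glia it had 3.96 to 78.0 CPM (median 11.1), against 0 to 6.04 CPM (median 0.382) in GMR86E01 whole brain (4.53, adjusted p = 0.00148). *Obp83g* (3.67), *Obp83cd* (3.36), *Obp83ef* (3.07), *a10* (3.01), *Obp19d* (2.52), *EbpIII* (2.09), *Obp8a* (1.69) and *Obp18a* (1.12) were also higher in ensheathing glia, with adjusted p between 4.83e-07 and 0.013. *Obp83g* (at most 0.553 CPM) and *Obp83ef* (median 0.0503 CPM, at most 4.40 CPM) were near 0 in most whole brains of these lines and passed the filter through the sorted libraries. For *EbpIII* the ranges were 16.8 to 254 CPM (median 70.5) in ensheathing glia, against 7.55 to 33.4 CPM (median 19.1) in whole brain. The *Obp18a* difference came from GMR10E12, since with GMR56F03 alone it was 0.31 (adjusted p = 0.563), and it was lost without the libraries with *Yp1* above 200 CPM (1.05, adjusted p = 0.0504). With a single line, *Obp83ef* in GMR56F03 (2.27, adjusted p = 0.103) and *Obp8a* in GMR10E12 (0.80, adjusted p = 0.258) did not pass either.

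*Obp44a* was only slightly higher in sorted ensheathing glia, at 329 to 1309 CPM (median 667), against 110 to 1400 CPM (median 490) in whole brain. The log2 difference of 0.62 (SE 0.256, adjusted p = 0.0443, edgeR's quasi-likelihood test) was lost in 14 of 24 fits that left out 1 library (adjusted p up to 0.0796) and with DESeq2 size factors (adjusted p = 0.052). With GMR10E12 alone it was 0.26 (adjusted p = 0.605). In astrocyte-like glia it had 238 to 816 CPM (median 517), against 115.3 to 639 CPM (median 220), and the difference of 1.37 passed (SE 0.232, adjusted p = 0.000341) in each such fit. *Obp8a* was likewise higher in astrocyte-like glia, at 9.39 to 38.8 CPM (median 11.8), against 0.668 to 6.59 CPM (median 2.56) in whole brain (3.01, SE 0.427, adjusted p = 8.78e-05). *a10* passed in astrocyte-like glia (3.35, adjusted p = 0.0366) and was lost in 6 of 12 such fits (adjusted p up to 0.0945), in DESeq2 (3.03, adjusted p = 0.0582) and in 1 fit over all 36 libraries (3.16, adjusted p = 0.0594).

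In GMR86E01 cells *Obp83cd* and *Obp83ef* did not pass over both ages (2.78, adjusted p = 0.2, and 3.14, adjusted p = 0.142, edgeR's quasi-likelihood test). Without whole brain day 70 replicate 3, the library with fat body markers, both did (*Obp83cd* 5.36, adjusted p = 0.000258, and *Obp83ef* 6.51, adjusted p = 0.0017). With the replicate numbers as a block, *Obp83ef* passed as well (5.07, adjusted p = 0.0242).

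Few members were lower in sorted glia. *Obp56h*, whose reduction in males alters courtship, had 2 counts in all 12 ensheathing libraries, against 107 in whole brain of the same lines (pooled 0.0289 CPM against 1.52 CPM, ratio 0.019, 95% exact interval 0.00228 to 0.0704, counting error only). In the 6 astrocyte-like libraries it had none, against 80 counts in GMR86E01 whole brain (1.97 CPM), so with a floor of 3 counts over the group (0.0575 CPM) it was at least 34.3-fold lower. Both differences passed edgeR's quasi-likelihood test (adjusted p = 1.21e-05 in ensheathing and 0.00166 in astrocyte-like glia). *Obp83a*, which encodes the olfactory sensillum protein OS-F, had 12 counts in ensheathing libraries, against 86 in whole brain (log2 −2.76, SE 0.814, adjusted p = 0.00587). *Obp56h* and *Obp83a* passed the filter through whole brain, the side where they were higher, so a lower call was largely set by the filter. With the filter set on the compared groups neither was tested. *Obp85a* was close to the threshold, at 0 to 1.77 CPM (median 0.115) in ensheathing glia, against 0 to 3.45 CPM (median 0.943) in whole brain (−1.56, adjusted p = 0.0617), and passed with the replicate block (adjusted p = 0.0397). *Obp57b*, from a cluster of 3 on 2R, was called higher in ensheathing glia on 65 counts, against 10 in whole brain (2.59, adjusted p = 0.0254). At no more than 0.550 CPM in these whole brains, it passed the filter through sorted libraries, the side where it was higher. A higher call was thus largely set by the filter too, and with the filter set on the compared groups *Obp57b* was not tested. It was lost with the replicate block (adjusted p = 0.0587), in DESeq2 (adjusted p = 0.0546), and without GMR56F03 day 70 replicate 3 or day 5 replicate 1 or GMR10E12 day 70 replicate 2 or day 5 replicate 3 (adjusted p up to 0.0821).

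The third question was whether ensheathing and astrocyte-like glia differ in these genes. Of 13 members tested, 2 were higher in ensheathing glia, where 5.92% of all genes were called (2.76% higher and 3.16% lower). *Obp18a* had 24.1 to 952 CPM (median 186) in ensheathing glia, against 9.24 to 90.6 CPM (median 25.2) in astrocyte-like glia (2.15, SE 0.446, adjusted p = 0.00558, edgeR's quasi-likelihood test). With GMR56F03 as the only ensheathing driver the difference was 0.54 and did not pass (adjusted p = 0.497), so it rested on GMR10E12 cells. *Obp56d* (7.86, adjusted p = 0.0495) rested on the 2 libraries described above and was lost in 14 of 18 fits that left out 1 library (adjusted p up to 0.288). *a10* did not pass (1.96, adjusted p = 0.122), nor did *Obp44a* (0.31, adjusted p = 0.431) or *Obp8a* (−0.31, adjusted p = 0.812). No member passed when the excess of sorted cells over whole brain was compared between ensheathing and astrocyte-like lines (0 of 17 in edgeR's quasi-likelihood test, 2 at an unadjusted p under 0.05, and 0 in DESeq2), where 8.31% of all genes were called.

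Whole brains of the 3 lines were compared to show differences between lines that do not depend on sorting. No member was called in any of the 3 pairs by edgeR's quasi-likelihood test (0 of 14 each, where 0.28%, 0.207% and 0.342% of all genes were called). At an unadjusted p under 0.05, there were 4 members for GMR56F03 against GMR10E12, 1 for GMR56F03 against GMR86E01 and 3 for GMR10E12 against GMR86E01, and DESeq2 called 0 in the first 2 pairs. The last 3 were *Obp44a* (1.56, adjusted p = 0.0996), *Obp8a* (1.54, adjusted p = 0.114) and *Obp18a* (2.38, adjusted p = 0.116), all higher in GMR10E12 brains, and DESeq2 called all 3 (adjusted p = 0.0124, 0.0079 and 0.0097).

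The scarce members left some single-library signals. *Obp22a*, *Obp51a* and *Obp56g*, known in males as seminal fluid protein genes, had 21, 30 and 18 counts in all. GMR10E12 whole brain replicate 1 at day 70, the shallowest library, held 19 of the 21 *Obp22a* counts (20.8 CPM) and 10 of the 18 *Obp56g* counts (10.96 CPM). *Obp28a*, abundant in antennal basiconic sensilla, reached 6.78 CPM in GMR10E12 glia replicate 2 at day 70, where *Obp83b* (olfactory protein OS-E) had 20 of its 32 and *Obp57c* 50 of its 99 counts. *Obp69a*, a pheromone-binding protein relative, was spread over 21 libraries with at most 2.26 CPM, and *Obp49a*, which lowers sugar responses in the presence of bitter compounds, over 19 libraries with at most 2.34 CPM. *Obp56a* (146 counts) never exceeded 2.35 CPM. None of these passed the filter on low counts. In fits without the filter 27 of the 36 members that never passed it could be tested, and 2 were called. *Obp49a* was lower in astrocyte-like glia than in whole brain (−4.54, adjusted p = 0.0321) and *Obp28a* lower in GMR56F03 than in GMR10E12 glia (−6.33, adjusted p = 0.0334, and −4.99, adjusted p = 0.0258, in DESeq2, which called no other of them).

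The rest of the chemosensory machinery was set beside the members. Of 230 receptors, carriers and relatives, 194 had counts and 54 had at least 100, including 10 of 61 odorant receptors (with the co-receptor *Orco*), 13 of 66 ionotropic and 11 of 60 gustatory receptors and 9 of 13 members of the takeout family, which bind hydrophobic ligands. With age in ensheathing glia, 1 of 9 ionotropic receptors tested rose (*Ir62a*, 2.15, adjusted p = 0.000716, edgeR's quasi-likelihood test) and 1 of 6 takeout genes fell (*CG2016*, −0.59, adjusted p = 0.0492), and none of the 7 odorant and 7 gustatory receptors tested was called by edgeR (1 and 2 of them at an unadjusted p under 0.05). Over all genes 9.41% were called higher and 8.82% lower there. In astrocyte-like glia none of the 19 genes tested was called by edgeR, where 6.44% of all genes were called, and 3 had an unadjusted p under 0.05. In whole brain 3 of 8 odorant receptors (*Or45a*, *Or59b* and *Or92a*, 0.80 to 5.09), 2 of 10 gustatory (*Gr61a*, *Gr66a*) and 2 of 13 ionotropic receptors (*Ir41a*, *Ir93a*) rose and none fell, where 11% of all genes were higher and 10.4% lower, with family medians of 0.88, 0.75 and 0.67, against 0.02 over all genes. Among carriers and relatives *CG14661* (1.62) and *Est-6* (1.45) were called higher there, and *CG2016* (−0.64) and *CG30172* (−0.49) lower. Sorted ensheathing glia held less of 5 of 11 odorant receptors than whole brain, *Orco* among them (−1.40, adjusted p = 0.0454), and more of 2, where 25.6% of all genes were lower and 25.9% higher. Of 12 ionotropic receptors 3 were lower and 2 higher in sorted ensheathing glia, and of 10 gustatory receptors 2 were lower and none higher. Of 8 takeout genes 2 were lower and 2 higher, and of 6 other chemosensory genes 1 was lower and 2 higher. Of the 2 chemosensory protein relatives 1 was lower. The members had 11 higher and 2 lower in the same comparison, with the limit of the filter given above. The families were not tested against each other.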

How the data were processed

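Poly(A) RNA of 36 libraries was sequenced with a modified Smart-seq3 protocol. The authors aligned reads with STAR 2.7.3a to dm6, removed unmapped and improperly paired reads and counted reads per gene (FlyBase annotation, union mode), and the deposited table holds these raw counts. Whether counting used strand is not given in the sources used here. Groups were taken from the sample labels. The members and gene lists were chosen with earlier results of these data known.

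Only the libraries of a comparison entered its fit in edgeR 4.0.16 under R 4.3.3 (TMM scaling, quasi-likelihood test, Benjamini-Hochberg adjustment over all genes tested, threshold 0.05). The SE is |log2 fold change| over the root of the F statistic. Genes low in counts were removed with filterByExpr. This filter was set first on the labelled groups, then on the groups compared, and after both sets of calls had been seen the labelled groups were restored, partly so that scarce members stayed testable. Calls that differ between the filters are therefore not firm. The age difference between GMR56F03 and GMR10E12 glia and the exclusion of libraries with high *Yp1* were added after the data were seen.

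CPM are reads per 1000000 counted reads, without TMM scaling. Named with values was every member that passed the filter in at least 1 comparison, with the value in every library for those called at least once and with a mean of at least 20 CPM in a group, while other chemosensory genes were named only where called. Scarcer members were named after their values had been seen. Libraries held 912285 to 17060052 counts, and 3 counts was the floor. Intervals and floors cover counting error only. Exon lengths and positions came from Ensembl release 115 on dm6 coordinates, matched for 53 of 53 members. Alternatives were DESeq2 1.42.0, other scaling, other filters, 1 fit over all libraries, a replicate block, single lines and each library left out. Where a call gained by leaving out 1 library is given, that library was picked after these fits had been seen. The authors state that unsorted suspensions came from the same brains, but the labels do not say that equal replicate numbers mark the same pool. The deviations of sorted and unsorted libraries with the same number had a mean correlation of 0.108 (18 pairs, -0.022 to 0.321). For 36 pairs of different numbers it was -0.0533. The main fits of sorted glia against whole brain did not pair the libraries, and the replicate block did so by number. Nothing in the labels says that replicates were independent cultures or crosses, so p-values measure the spread between pools of brains. No promoter, protein or oligo sequences were used.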

Additional observations from a re-analysis of the deposited data

Results flagged for a closer look

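The change of *Obp83cd* with age differed between ensheathing and astrocyte-like glia by 5.44 on the log2 scale (adjusted p = 0.0021, edgeR's quasi-likelihood test). The change was −2.81 in ensheathing glia (n = 6 at each age) and −8.48 in astrocyte-like glia (n = 3 at each age), and 6 of 6 old GMR56F03 and GMR86E01 libraries lay below every young library of their group, while the ages overlapped in GMR10E12 glia. The difference ranged from 4.63 to 8.78 when single libraries were left out, and with GMR56F03 as the only ensheathing driver it was 3.44 and did not pass (adjusted p = 0.142).

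Between the ensheathing drivers, the age difference was 2.48 for *Obp18a* (adjusted p = 0.0351) and −3.30 for *a10* (adjusted p = 0.0165), GMR56F03 minus GMR10E12, by edgeR's quasi-likelihood test. *Obp18a* was higher in 3 of 3 old GMR56F03 libraries and lower in 3 of 3 old GMR10E12 libraries than in any young one of the line. *a10* was higher in all old libraries of both lines. This comparison was added after the values had been seen, and the calls lost with single libraries left out are given with each gene above.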

How the results depend on the processing

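Of 49 called results, leaving out 1 library kept the call in 650 of 720 fits and lost it in 70, with no change of direction. Other alternatives kept it in 379 of 410 fits and lost it in 30, and 1 reversed: *Obp99c* with age in whole brain was −0.30 (adjusted p = 0.339) without the 4 libraries with *Yp1* above 200 CPM. Numbers below are members called. A minimum of 10 counts in every library left fewer members to test. All 21 called results that were still tested under it kept their call. Age in astrocyte-like glia (3) gave 5 in DESeq2, 5 in 1 fit over all 36 libraries and 1 with at least 10 counts required in every library. Age in whole brain (6) gave 2 of the 3 tested with that minimum, 0 with GMR10E12 only and 3 with GMR86E01 only. Age in GMR56F03 glia (8) gave 5 of the 5 tested with that minimum, and in GMR10E12 glia (2) gave 4 without a filter. Ensheathing glia against whole brain (13) gave 3 of the 3 tested with that minimum and 8 with GMR56F03 only. Astrocyte-like glia against whole brain (5) gave 9 in DESeq2, 9 without a filter, 10 over all libraries and 1 with that minimum. Ensheathing against astrocyte-like glia (2) gave 1 under total-count scaling, that minimum, the filter on the groups compared or GMR10E12 only, and 0 with GMR56F03 only. GMR56F03 against GMR10E12 glia (1) gave 2 in DESeq2 and without a filter. The age difference between glial types (1) gave 2 in DESeq2, under total-count scaling and with GMR10E12 only, and 0 with that minimum or GMR56F03 only. The age difference between drivers (2) gave 4 in DESeq2 and without a filter and 0 over all libraries. GMR10E12 against GMR86E01 whole brain (0) gave 3 in DESeq2 and 2 over all libraries.

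Leaving out 1 library gave 5 to 8 calls for age in ensheathing glia, 1 to 5 in astrocyte-like glia, 5 to 8 in whole brain, 7 to 8 in GMR56F03 and 1 to 5 in GMR10E12 glia. It gave 11 to 14 and 5 to 11 for ensheathing and astrocyte-like glia against whole brain, 1 to 2 between glial types and between drivers, 1 to 3 and 0 to 4 for the age differences between glial types and drivers, 0 to 2 for the excess over whole brain between lines, and 0 to 0, 0 to 0 and 0 to 1 for GMR56F03 against GMR10E12, GMR56F03 against GMR86E01 and GMR10E12 against GMR86E01 whole brains. The replicate block moved *Obp57b* in ensheathing glia against whole brain to 2.29 (adjusted p = 0.0587), and *EbpIII* with age in astrocyte-like glia to 2.74 (adjusted p = 0.00504), where the numbers pair nothing. Total-count scaling moved the median of all genes to 0.50 for age in astrocyte-like glia, 0.17 in whole brain and −0.33 for astrocyte-like glia against whole brain, with 75.8%, 81.2% and 38.7% of calls higher, against 43.4%, 51.5% and 53.0% under TMM. It also moved that share to 69.0% between glial types (TMM 46.7%), 70.2% between drivers (44.7%), 14.5% and 76.5% for the age differences between glial types (46.0%) and drivers (65.6%), and 81.9% for the excess over whole brain between lines (53.1%). DESeq2 gave no adjusted p for *Obp56d* in 2 comparisons.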
